A study of Rattus norvegicus with 74 samples.

Results

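The 9 liver genes described here are Slc6a6, Steap3, Qpct, Qsox1, Lcmt1, Trim2, Pcp4l1, Mmd2 and C2h3orf80. They were chosen by their values with phenobarbital, BDE-47 or DE-71, which were lower than at 0 mg/kg of the same agent, under a rule that gives no numerical threshold. They are 9 of the 14217 genes with a probe set of their own, and 14 of 20826 single-gene probe sets measure them. No filter on dim probe sets was applied, so all 14 entered every comparison. Since the values with phenobarbital, BDE-47 and DE-71 chose the genes, those values are given as a description. A call for these agents marks only where a change stands in the fit over all probe sets, and it is used as support for nothing. PCB126 played no part in the choice, and its comparisons were tested.

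Liver RNA came from Wistar Han rats at postnatal day 22. Phenobarbital was given at 0, 5 or 45 mg/kg and PCB126 at 0, 10, 50 or 250, both by gavage, and the labels do not give a separate schedule for these animals. The PCB126 doses carry the unit mg/kg in the labels, which could not be checked. BDE-47, a single brominated diphenyl ether, and DE-71, a commercial mixture of brominated diphenyl ethers, were given at 0.1, 15 and 50 mg/kg, beside a 0 mg/kg group, to the dams from gestation day 6 to 21 and to the pups from postnatal day 12 to 21. Every group had exposure in utero and after birth according to the growth protocol, so the 0 mg/kg animals of each agent are gavaged controls of the same age. Sex and litter are not given, and p-values therefore measure the spread between these samples only.

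The 74 arrays form 15 groups of 4 or 5, and the median log2 value of an array ranged from 4.82 to 5.04. In 4 pairs the arrays were nearly the same over the most variable probe sets (root mean square difference below 0.3, next lowest pair 0.51). Replicates 3 and 4 of BDE-47 at 0 mg/kg and replicates 1 and 2 of DE-71 at 15 mg/kg were averaged, which leaves 4 samples in each of those groups and 72 in all. The other pairs join replicate 3 of BDE-47 at 15 mg/kg with replicate 3 at 50 mg/kg, and replicate 5 of DE-71 at 15 mg/kg with replicate 4 at 50 mg/kg. These arrays stayed in the comparisons, and values without them stand beside part of the results. Replicate 2 of DE-71 at 50 mg/kg had the lowest mean correlation with its group (0.978).

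The constitutive androstane receptor (CAR, Nr1i3) is a nuclear receptor of hepatocytes that moves into the nucleus after exposure to phenobarbital and many other foreign compounds. With its partner RXR it binds paired half-sites and raises genes of drug oxidation, conjugation and transport, and it also lowers part of the liver's metabolic program. The aryl hydrocarbon receptor (AhR) is the receptor for dioxin-like compounds such as PCB126, and its best known target is the cytochrome P450 gene Cyp1a1. In these samples Ces2c, a carboxylesterase gene induced through CAR, stood at 12.36 ± 0.11 (SD, n = 5) with 45 mg/kg of phenobarbital against 8.56 ± 0.65 in its controls. With PCB126 at 250 mg/kg Ces2c stood at 8.19 ± 0.13 against 8.15 ± 0.22. Cyp1a1 stood at 13.41 ± 0.12 with PCB126 at 250 mg/kg against 9.17 ± 0.98 in its controls, and at 13.19 ± 0.37 (n = 4) with DE-71 at 50 mg/kg against 6.91 ± 1.47 (n = 5).

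Promoter sequences are shown for 3 genes to place the AGGTCA half-site, to which CAR and other nuclear receptors bind, beside the best known core promoter motifs. All 9 genes matched RefSeq promoters of the rat assembly GRCr8, in a window from 250 bases before to 50 bases after the annotated start. Searched on both strands, AGGTCA occurred in that window of Slc6a6 and Pcp4l1, 2 of 9 genes, against 16.2% of all 33469 promoters of the same length. Its variant AGTTCA occurred in Slc6a6, Mmd2 and Qsox1 (14.5% of all promoters), and GCGTG, the core of the AhR site, in Slc6a6, Mmd2, Qsox1 and C2h3orf80 (29.7%). The TATAAA motif was found in Slc6a6 and Pcp4l1 (14.2%), and CCAAT in 6 of 9 genes (37.5%). The AGTTCA and GCGTG matches of Qsox1 overlap, no other matches do, and a match is one of letters only. The lines below give the 110 bases before the start of Pcp4l1 (chr13:86144900-86145009, minus strand), Slc6a6 (chr4:125752392-125752501, plus strand) and Lcmt1 (chr1:187335124-187335233, plus strand), read 5′ to 3′ along the gene. Capitals mark the half-sites, the TATA motif and the CCAAT motif on either strand, so that a match on the opposite strand is printed as its reverse complement.
Pcp4l1: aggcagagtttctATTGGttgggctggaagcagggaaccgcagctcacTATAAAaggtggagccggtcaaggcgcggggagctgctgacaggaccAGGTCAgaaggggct
Slc6a6: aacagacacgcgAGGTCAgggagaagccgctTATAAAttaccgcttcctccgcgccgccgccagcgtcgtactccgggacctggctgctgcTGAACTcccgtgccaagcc
Lcmt1: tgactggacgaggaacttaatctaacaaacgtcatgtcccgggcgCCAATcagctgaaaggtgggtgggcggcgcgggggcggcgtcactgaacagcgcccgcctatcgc
The half-site begins 98 bases before the start in Slc6a6 and 15 bases before it in Pcp4l1, while the Lcmt1 stretch holds neither half-site.

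The median change of the 9 genes lay more than 1 log2 unit below 0 mg/kg at the highest dose of all 3 agents that chose them. With phenobarbital at 45 mg/kg 5 of the 9 genes were called lower at an adjusted p below 0.05 (limma, Benjamini-Hochberg), against 0.835% of all probe sets, and the median over the genes was -1.32 log2 units. BDE-47 at 50 mg/kg gave 7 of 9 (1.14% of all probe sets) with a median of -1.72, and DE-71 at 50 mg/kg gave 8 of 9 (3.9%) with a median of -1.54. Fitted on the DE-71 arrays of the 2 groups compared alone, 2 of 9 were called at 50 mg/kg, and without replicate 2 of that group 7 of 9, where the probe sets called in both directions went from 1589 to 403. At the middle doses 2 of 9 were called lower with BDE-47 (0.125%) and 2 of 9 with DE-71 (0.144%), with medians of -1.15 and -0.95. These middle-dose counts turn on single arrays. With BDE-47 at 15 mg/kg 0 of 9 were called without replicate 1, 2 or 3 of its controls or replicate 1 or 3 of the dose, 1 without replicate 2, 4 or 5 of the dose, and 3 without replicate 5 of the controls. With DE-71 at 15 mg/kg 1 of 9 was called without replicate 2, 3 or 4 of its controls or replicate 1, 3 or 4 of the dose, and 3 without replicate 1 of the controls or replicate 5 of the dose. Phenobarbital at 5 mg/kg gave 1 of 9 (0.0144%), and 0.1 mg/kg gave none with BDE-47 (0%) or DE-71 (0%), where none of the 9 had an unadjusted p below 0.05 either. The median over all probe sets stayed within 0.02 of 0 in each of these comparisons. Samples of the dose and of its controls did not overlap, with the dose lower, for 3 and 5 of 9 genes with phenobarbital at 5 and 45 mg/kg (1.18% and 2.61% of all probe sets). This was so for 7 and 8 of 9 with BDE-47 at 15 and 50 mg/kg (2.07% and 3.38%), and for 2 and 3 of 9 with DE-71 at these doses (1.02% and 2.53%). All these counts follow from how the genes were chosen, and nothing is read from them. In whole liver RNA, fewer cells of a type and less RNA per cell cannot be told apart.

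**Figure D1:**
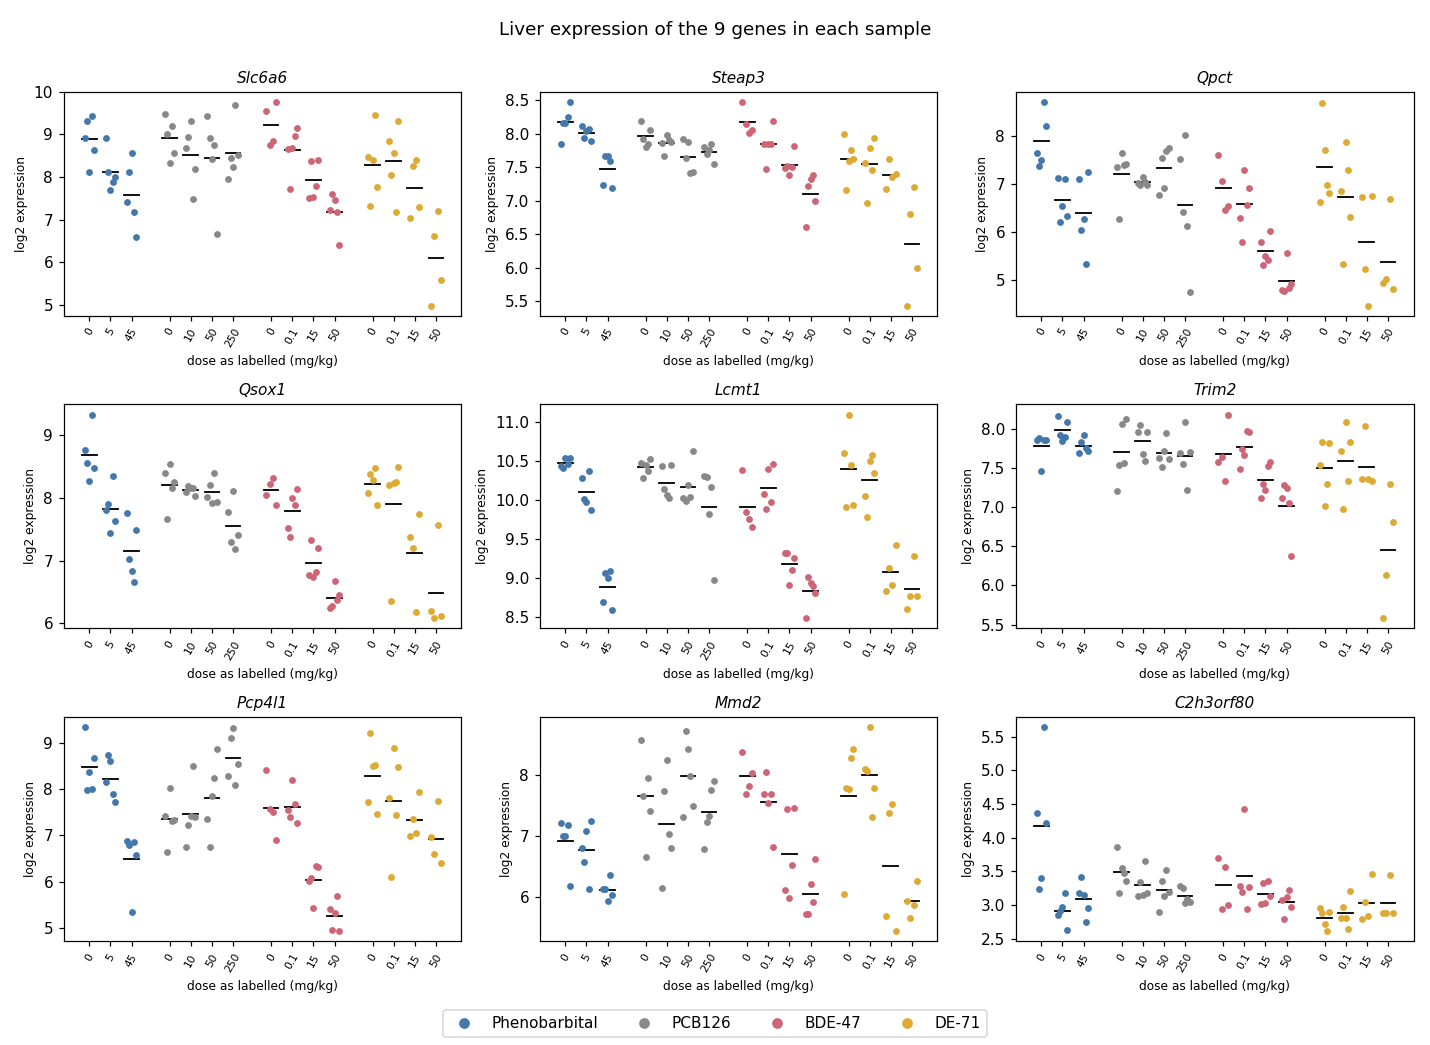
Log2 expression (y axis) of each of the 9 genes in every sample, by agent and labelled dose in mg/kg (x axis). Points are samples, horizontal bars are group means, and near-identical arrays of the same group are averaged. The groups at 45 mg/kg of phenobarbital and at 50 mg/kg of BDE-47 and DE-71 lie low for most genes. With PCB126 at 250 mg/kg the means of 8 of 9 genes lie below their controls, by up to -0.65 for Qpct and -0.64 for Qsox1, and none was called. Pcp4l1 goes the other way: its 250 mg/kg samples lie between 8.09 and 9.32, above every control sample.

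**Figure D2:**
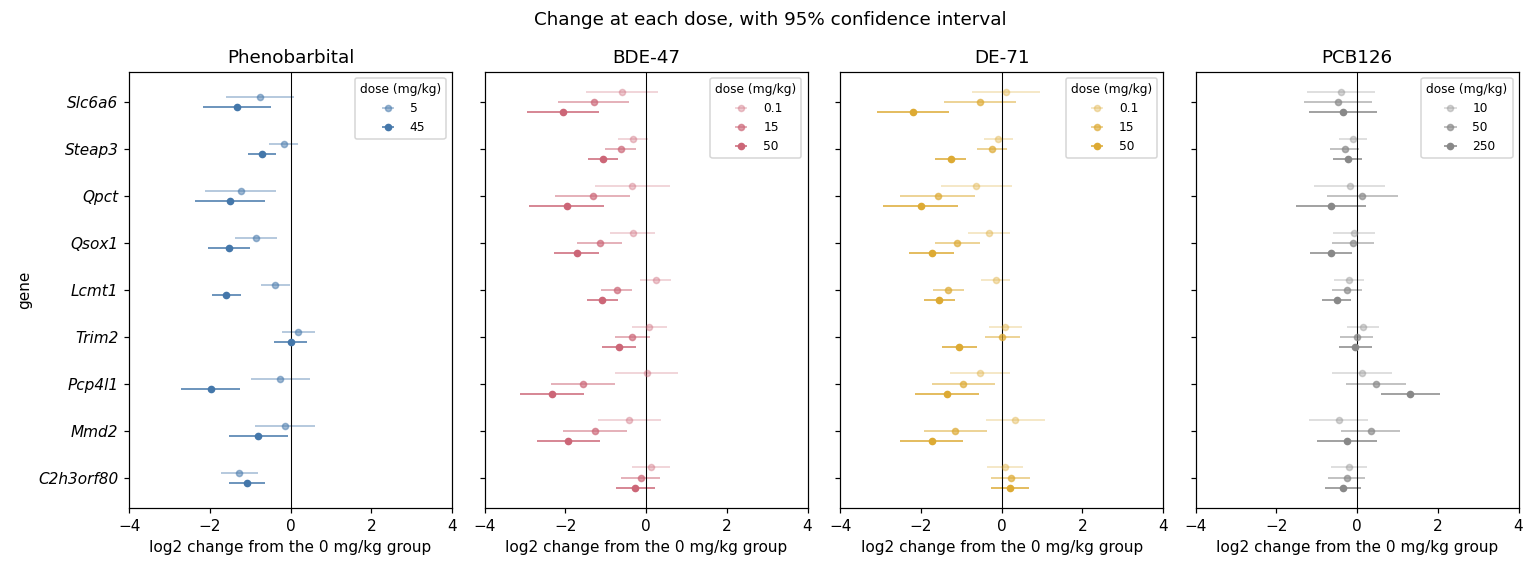
Log2 change of the group mean from 0 mg/kg of the same agent (x axis) with its 95% confidence interval from limma, for the 9 genes (y axis) and each dose. Darker points are higher doses. The BDE-47 changes at 50 mg/kg reach from -2.34 (Pcp4l1) to -0.27 (C2h3orf80), and the PCB126 intervals mostly cross 0.

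Transport and iron handling come first. Slc6a6 encodes the sodium-dependent taurine transporter, which brings taurine, used in bile acid conjugation, into cells. Its main probe set gave 8.93, 9.30, 8.13, 9.44 and 8.64 in the phenobarbital controls and 7.40, 8.13, 8.56, 7.17 and 6.59 at 45 mg/kg. Most treated samples were lower, but the groups overlapped, and the change of -1.32 (95% confidence interval -2.16 to -0.48) was not called. With BDE-47 the controls gave 9.54, 8.75, 8.84 and 9.76, the 15 mg/kg samples 7.50, 8.39, 7.53, 7.79 and 8.39, and the 50 mg/kg samples 7.22, 7.60, 7.47, 7.17 and 6.41. Both higher doses lay wholly below the controls, and at 50 mg/kg Slc6a6 was 4.15-fold lower (-2.05, interval -2.94 to -1.16). With DE-71 the 50 mg/kg samples spread widely, at 4.98, 6.61, 7.20 and 5.58 against controls of 8.47, 7.32, 8.40, 9.45 and 7.76, a 4.56-fold lower mean (-2.19, interval -3.08 to -1.30). The sample at 7.20 is the array that is nearly the same as a 15 mg/kg array; without that pair the change was -2.56, and without replicate 2, the lowest sample, it was -1.82. The DE-71 means ran 8.28 ± 0.81, 8.38 ± 0.82, 7.74 ± 0.68 and 6.09 ± 1.0 from 0 to 50 mg/kg, so the mean at 50 mg/kg was the lowest, although its sample at 7.20 lay within the ranges of the lower doses.

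Steap3 encodes an endosomal ferrireductase of the transferrin cycle, which reduces iron taken up by cells. In the phenobarbital controls it gave 7.84, 8.17, 8.17, 8.26 and 8.48, and at 45 mg/kg 7.24, 7.67, 7.67, 7.59 and 7.19. The groups did not overlap and the mean was lower by a change of -0.71 (interval -1.07 to -0.35), whereas 5 mg/kg gave -0.17. With BDE-47 the means stepped down from 8.17 ± 0.21 (n = 4) to 7.85 ± 0.26, 7.54 ± 0.17 and 7.11 ± 0.32 (n = 5 each). Each BDE-47 dose overlapped the next, while the 50 mg/kg samples (6.60, 7.22, 7.33, 7.38 and 7.0) were all below the lowest control at 8.01. DE-71 at 0.1 and 15 mg/kg left Steap3 near its control mean of 7.63 ± 0.31, at 7.55 ± 0.37 and 7.39 ± 0.18. At 50 mg/kg of DE-71 the samples were 5.44, 6.81, 7.21 and 5.99, a change of -1.26 (interval -1.64 to -0.88), and 1 of them reached into the control range. That sample is again the near-identical array, and without the pair the change was -1.55. The 50 mg/kg samples had an SD of 0.80 against 0.31 in the controls. The interval uses a spread shared by all groups of the fit, so it can be too narrow for these samples.

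Among the genes of protein modification, Qpct encodes glutaminyl cyclase, which turns an N-terminal glutamine or glutamate of secreted peptides into pyroglutamate. Phenobarbital controls gave 7.65, 7.38, 7.51, 8.73 and 8.21, the 5 mg/kg samples 7.13, 6.21, 6.54, 7.10 and 6.34, and the 45 mg/kg samples 7.10, 6.03, 6.27, 5.32 and 7.26. All treated samples of both doses lay below all controls, by -1.23 at 5 mg/kg and -1.50 at 45 mg/kg, although neither was called. The lower phenobarbital dose thus had 82.2% of the log2 change of the higher one. BDE-47 took the mean from 6.93 ± 0.53 (n = 4) to 6.58 ± 0.58, 5.60 ± 0.30 and 4.96 ± 0.33. At 50 mg/kg 4 samples lay between 4.77 and 4.90 and replicate 3, the near-identical array, at 5.55. DE-71 gave 7.37 ± 0.85, 6.74 ± 0.98, 5.79 ± 1.15 and 5.36 ± 0.89, with a wide spread at every dose. At 50 mg/kg 3 DE-71 samples lay at 4.93, 5.02 and 4.81, and replicate 4 at 6.69 was as high as the lower controls. Without the near-identical pair the DE-71 changes of Qpct were -1.90 at 15 mg/kg and -2.45 at 50 mg/kg, against -1.58 and -2.0 with it.

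Qsox1 encodes a sulfhydryl oxidase of the secretory pathway that forms disulfide bonds. On its main probe set it was called lower with phenobarbital at 45 mg/kg and with BDE-47 and DE-71 at 15 and 50 mg/kg. No other of the 9 genes was called in all these comparisons. The second Qsox1 probe set was called with phenobarbital at 45 mg/kg. It was not called with BDE-47 or DE-71 at 15 or 50 mg/kg (limma, adjusted p from 0.0596 to 0.71). On the main probe set the phenobarbital samples were 8.76, 8.56, 8.27, 9.33 and 8.48 at 0 mg/kg, 7.81, 7.91, 7.44, 8.35 and 7.63 at 5 mg/kg, and 7.76, 7.02, 6.84, 6.66 and 7.49 at 45 mg/kg. One sample at 5 mg/kg reached the lowest control, and none did at 45 mg/kg, where the change was -1.53 (interval -2.05 to -1.01). BDE-47 samples were 8.04, 8.23, 8.32 and 7.89 at 0 mg/kg, 6.76, 7.33, 6.74, 6.82 and 7.20 at 15 mg/kg, and 6.25, 6.28, 6.67, 6.37 and 6.45 at 50 mg/kg. Here 0, 15 and 50 mg/kg formed 3 groups that did not overlap, with a 2.22-fold and a 3.29-fold lower mean. With DE-71 the 50 mg/kg samples were 6.20, 6.08, 7.57 and 6.11 against 8.08, 8.38, 8.29, 8.48 and 7.89 in the controls (-1.74, interval -2.29 to -1.18). All lay below the controls, the near-identical array was the highest at 7.57, and without that pair the change was -2.09.

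Lcmt1 encodes the leucine carboxyl methyltransferase that methylates the catalytic subunit of protein phosphatase 2A, a step in the assembly of that phosphatase. Phenobarbital controls were tightly grouped at 10.44, 10.42, 10.54, 10.46 and 10.53. At 5 mg/kg Lcmt1 gave 10.28, 10.02, 9.97, 10.38 and 9.87, and at 45 mg/kg 8.69, 9.07, 9.0, 9.09 and 8.59. Each group lay wholly below the one before it, and the 45 mg/kg mean was 3.01-fold lower than the control mean (-1.59, interval -1.95 to -1.23). With BDE-47 at 0.1 mg/kg Lcmt1 stood at 10.16 ± 0.26 against 9.91 ± 0.32 in the controls, and 15 and 50 mg/kg gave 9.18 ± 0.18 and 8.83 ± 0.20. DE-71 at 0.1 mg/kg gave 10.25 ± 0.33 against 10.40 ± 0.49, then 9.08 ± 0.27 at 15 mg/kg and 8.86 ± 0.30 at 50 mg/kg (n = 4 each). With DE-71 the 15 mg/kg samples of Lcmt1 (8.83, 9.13, 8.92 and 9.43) were close to the 50 mg/kg samples (8.60, 8.77, 9.29 and 8.77). Of the latter 3 lay below every 15 mg/kg sample, and the overlap came from the sample at 9.29, the array that is nearly the same as the 15 mg/kg array at 9.43. The 15 mg/kg change was 85.8% of that at 50 mg/kg.

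Trim2 encodes an E3 ubiquitin ligase of the tripartite motif family, known from its role in neurons. It did not share the phenobarbital pattern: the mean was 7.79 ± 0.18 at 0 mg/kg, 7.98 ± 0.14 at 5 mg/kg and 7.79 ± 0.10 at 45 mg/kg. Neither phenobarbital dose therefore bears out its place among genes lowered by CAR activators. With BDE-47 Trim2 was lower by a change of -0.67 (interval -1.10 to -0.24) at 50 mg/kg, with samples at 7.12, 7.28, 7.24, 7.05 and 6.38 against 7.58, 7.64, 7.34 and 8.19. The groups did not overlap, but the change was not called on this probe set. DE-71 at 15 mg/kg gave 7.52 ± 0.34 against 7.50 ± 0.35, and at 50 mg/kg 5.58, 6.14, 7.30 and 6.81, a change of -1.04 (interval -1.47 to -0.62). Among the DE-71 doses the lower mean of Trim2 was seen at 50 mg/kg, and replicate 2 carried part of it, since the change without that sample was -0.75. Without the near-identical pair the change was -1.32.

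The third group holds small, membrane and uncharacterised products. Pcp4l1 encodes a small protein with an IQ motif related to the calmodulin regulator PCP4. It had the largest change of the 9 genes with phenobarbital at 45 mg/kg and with BDE-47 at 50 mg/kg. Its samples were 9.33, 7.98, 8.36, 8.01 and 8.66 in the phenobarbital controls, 8.15, 8.74, 8.60, 7.89 and 7.71 at 5 mg/kg, and 6.87, 6.79, 5.34, 6.86 and 6.56 at 45 mg/kg. The 5 mg/kg samples overlapped the controls, and every 45 mg/kg sample lay below every control, a 3.95-fold lower mean (-1.98, interval -2.72 to -1.24). BDE-47 samples were 8.41, 7.57, 7.51 and 6.90 at 0 mg/kg, 6.01, 6.07, 5.42, 6.34 and 6.32 at 15 mg/kg, and 5.41, 4.95, 5.33, 5.69 and 4.93 at 50 mg/kg. Both BDE-47 doses lay below all controls, 2.96-fold and 5.05-fold lower in the mean, and 0.1 mg/kg stood at 7.61 ± 0.36 beside a control mean of 7.60 ± 0.62. Without the near-identical pair the BDE-47 change at 15 mg/kg was -1.41 and was not called, against -1.56 with it. DE-71 gave a smaller and more spread change, from 8.28 ± 0.70 to 7.74 ± 1.07, 7.33 ± 0.43 and 6.92 ± 0.59. At 50 mg/kg the DE-71 change of -1.36 was called, but not without replicate 2, where the change was -1.37.

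Mmd2 encodes a membrane protein of the progestin and adipoQ receptor family that resides in the Golgi. Phenobarbital controls gave 7.21, 7.0, 7.0, 7.18 and 6.18 and the 45 mg/kg samples 6.13, 6.14, 5.94, 6.36 and 6.03. Only the lowest control reached the treated range, and the change of -0.80 was not called. BDE-47 samples were 8.38, 7.68, 7.81 and 8.03 at 0 mg/kg and 5.73, 5.73, 6.22, 5.92 and 6.62 at 50 mg/kg, a 3.82-fold lower mean (-1.93, interval -2.72 to -1.15) with no overlap. At 15 mg/kg of BDE-47 the samples spread from 5.98 to 7.46, with 3 at or below 6.53 and the others at 7.45 and above. A similar spread was seen at 15 mg/kg of DE-71, where Mmd2 gave 5.69, 7.37, 7.53 and 5.45. With both agents the lowest 15 mg/kg sample is an array nearly the same as a 50 mg/kg array. Without these pairs the 15 mg/kg changes were -1.09 with BDE-47 and -0.80 with DE-71, against -1.27 and -1.15 with them. At 50 mg/kg the changes without the pairs were -1.98 and -1.71. At 50 mg/kg of DE-71 the samples were close together at 5.93, 5.65, 5.87 and 6.27, and the controls were 6.04, 7.79, 7.76, 8.29 and 8.43. Replicate 1 of those controls lay within the treated range, and the change was -1.73 (interval -2.51 to -0.95).

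C2h3orf80 is an uncharacterised gene, named after its human counterpart on another chromosome. Its probe set was dim, with a mean over all arrays of 3.20 that ranks at percentile 14.7 of all probe sets, so its values lie in a range where arrays separate levels poorly. The phenobarbital controls gave 4.37, 3.24, 3.40, 5.64 and 4.22, the 5 mg/kg samples 2.86, 2.91, 2.97, 3.17 and 2.63, and the 45 mg/kg samples 3.18, 3.41, 3.15, 2.75 and 2.95. The mean of the phenobarbital controls was 4.17 ± 0.96, beside group means of 2.81 to 3.48 in the 12 groups of the other agents. Agents may have been normalized separately, so these levels do not settle whether the controls or the treated samples stood apart. The changes were -1.27 (interval -1.71 to -0.82) and -1.09 (interval -1.53 to -0.64). Without replicate 4 of the controls, the highest sample, they were -0.90 and -0.72. Both intervals use a spread shared by all groups of the fit, so they can be too narrow beside these controls. With BDE-47 C2h3orf80 ran 3.30 ± 0.39, 3.42 ± 0.58, 3.17 ± 0.16 and 3.04 ± 0.17, and with DE-71 2.81 ± 0.14, 2.89 ± 0.21, 3.03 ± 0.31 and 3.02 ± 0.28. None of these groups left the range of its controls as a whole, so BDE-47 and DE-71 do not bear out its place among genes lowered by these agents.

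PCB126 was the negative reference, and its 3 doses were tested against 0 mg/kg. No member was called at 10, 50 or 250 mg/kg with limma, where 0% of all probe sets were called lower at each dose and 0%, 0% and 0.0336% were called higher. At an unadjusted p below 0.05 there were 0, 0 and 3 of 9 genes, beside 605, 1086 and 1227 of 20826 probe sets. The medians over the 9 genes were -0.18, -0.11 and -0.34 log2 units, beside -0.005, 0.001 and -0.005 over all probe sets. At 250 mg/kg the changes of 8 of 9 genes lay below 0, beside 51.6% of all probe sets. The largest of these were for Qpct (-0.65, interval -1.52 to 0.23, adjusted p = 0.912) and Qsox1 (-0.64, interval -1.17 to -0.12, adjusted p = 0.788). Qsox1 samples were 7.77, 7.30, 8.12, 7.19 and 7.42 against 8.39, 7.67, 8.54, 8.16 and 8.26, and the groups overlapped. For Qpct 1 sample of the 5 at 250 mg/kg stood at 4.75, the others at 7.53, 6.41, 8.04 and 6.13, against controls of 7.35, 6.26, 7.65, 7.40 and 7.43. Lcmt1 showed the same sample apart, at 8.98 beside 10.31, 10.30, 9.82 and 10.17, with a change of -0.51 (interval -0.87 to -0.14, adjusted p = 0.744). Steap3, Slc6a6, Mmd2, C2h3orf80 and Trim2 differed from their controls by -0.24, -0.35, -0.25, -0.34 and -0.05, with adjusted p from 0.908 to 0.993. The intervals are wide, that of Slc6a6 reaching down to -1.19, so a moderate change with PCB126 was not detectable for every gene.

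Pcp4l1 differed from the rest with PCB126. Its samples at 250 mg/kg were 8.28, 9.11, 9.32, 8.09 and 8.54, against 7.42, 6.65, 8.03, 7.31 and 7.33 at 0 mg/kg. Every treated sample lay above every control, and Pcp4l1 was the 1 gene of 9 with this separation, against 0.591% of all probe sets. The mean was higher by 1.32 (interval 0.58 to 2.06), which did not pass the test over all probe sets (adjusted p = 0.384). The second Pcp4l1 probe set gave 8.16, 9.36, 9.13, 8.02 and 8.66 against 7.03, 6.88, 7.54, 6.79 and 6.92, a difference of 1.63 (interval 0.88 to 2.39, adjusted p = 0.0861). On that probe set too, no treated sample came down to the controls, and the test was again not passed. The intermediate doses gave 0.11 and 0.46 on the first probe set and 0.40 and 0.49 on the second. Leaving out 1 array at a time kept the first value between 1.14 and 1.49 and never brought it past the threshold.

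Dose steps were set side by side for the 4 agents. Phenobarbital was given at fewer doses than the others, so an order over all its doses asks for fewer steps. Of the 9 genes, the mean was lower at each higher dose for 7 with phenobarbital (22.9% of all probe sets), 5 with BDE-47 (8.75%), 5 with DE-71 (6.06%) and 3 with PCB126 (4.51%). Steap3, Qpct and Qsox1 did so with phenobarbital, BDE-47 and DE-71, and the PCB126 genes were Qsox1, Lcmt1 and C2h3orf80. From 5 to 45 mg/kg of phenobarbital Pcp4l1 stepped by -1.73 and Lcmt1 by -1.21, the 2 genes called lower at that step (0.182% of all probe sets). Without replicate 3 of the 45 mg/kg group 1 was called there. C2h3orf80 and Qpct had most of their phenobarbital change at the lower dose, with later steps of 0.18 and -0.27. From 0.1 to 15 mg/kg of BDE-47 the same 2 genes, Pcp4l1 (-1.58) and Lcmt1 (-0.98), were called lower (0.187%), and 9 of 9 means were lower. Only 1 was called there without replicate 3 of the 0.1 mg/kg group or replicate 3 of the 15 mg/kg group. From 15 to 50 mg/kg of BDE-47 all 9 means were lower again, by -0.77 to -0.13, with 0 called by limma among the members and 0% of all probe sets, and 3 members at an unadjusted p below 0.05. The BDE-47 change at 15 mg/kg was between 50.6% and 67.5% of that at 50 mg/kg in each of the 9 genes. Replicate 3 of these groups is a near-identical pair, so these shares depend on it. Without the pair the changes at 15 and 50 mg/kg were -1.29 and -2.11 for Qpct and -0.31 and -0.73 for Trim2. For the dim C2h3orf80 they were -0.10 and -0.29, both small and not called.

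With DE-71 the step that held most of the change varied among the genes, a difference that was not tested. Lcmt1 stepped by -1.17 from 0.1 to 15 mg/kg, the 1 gene called lower there (0.0624% of all probe sets), and Mmd2 by -1.50 without a call. Steap3 and Trim2 were called lower from 15 to 50 mg/kg (0.024%), by -1.03 and -1.07, and Slc6a6 stepped by -1.65 without a call. Steap3 thus had 18.8% and Slc6a6 24.5% of their 50 mg/kg change at 15 mg/kg, beside 78.7% for Qpct and 63.3% for Qsox1. Fitted on the groups compared alone, 0 members were called at either step. The late step rests on few samples: from 15 to 50 mg/kg 0 members were called without replicate 2 of the 50 mg/kg group or replicate 3 of the 15 mg/kg group, and 1 without replicate 3 or 5 of the 50 mg/kg group. From 0.1 to 15 mg/kg 2 members were called without replicate 2 of the 0.1 mg/kg group or replicate 3 or 4 of the 15 mg/kg group. With PCB126 no step was called for any member: from 10 to 50 mg/kg 0% and from 50 to 250 mg/kg 0.0096% of all probe sets were called lower and as many higher, and 1 and 2 members had an unadjusted p below 0.05. Their PCB126 steps ran from -0.21 to 0.80 and from -0.77 to 0.86.

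**Figure D3:**
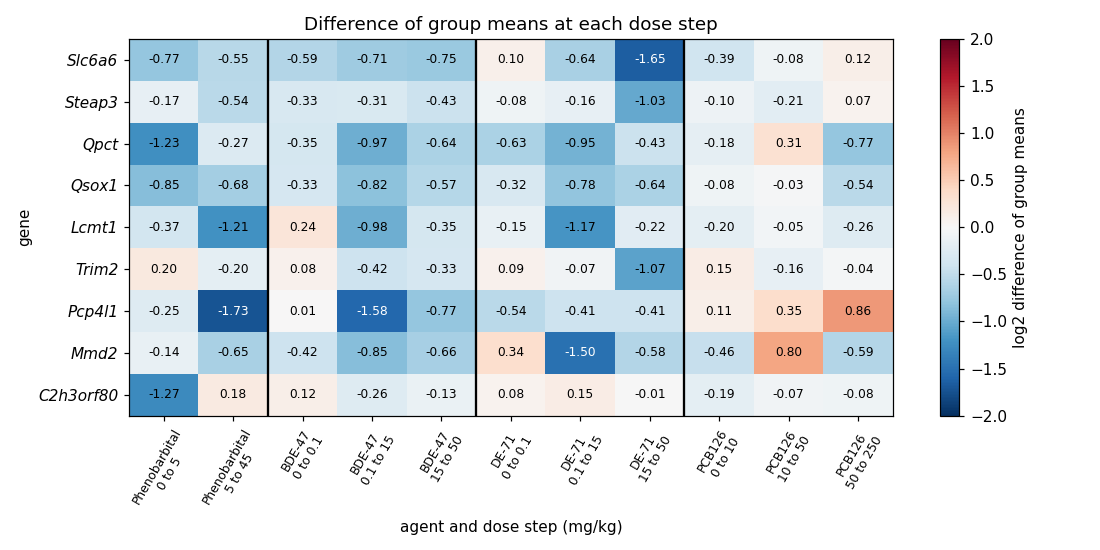
Log2 difference of group means at each dose step (x axis, agent and step in mg/kg) for the 9 genes (y axis), with the value printed in each cell and blue for lower. Pcp4l1 steps by -1.73 from 5 to 45 mg/kg of phenobarbital and by -1.58 from 0.1 to 15 mg/kg of BDE-47, and Slc6a6 by -1.65 from 15 to 50 mg/kg of DE-71, while its PCB126 steps are between -0.39 and 0.12.

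BDE-47 and DE-71 were given at matched doses, so their changes can be set against each other. BDE-47 is a congener with 1 defined structure and DE-71 a mixture that contains it. No difference between the 2 responses was called for any of the 9 genes at any of the 3 doses. Over all probe sets 0%, 0% and 0.0096% were called lower with DE-71 than with BDE-47, and 0%, 0.0096% and 0.0624% higher. At 50 mg/kg the DE-71 change minus the BDE-47 change was near 0 for Qsox1 (-0.02, interval -0.80 to 0.76) and Qpct (-0.04, interval -1.36 to 1.27). It was 0.98 for Pcp4l1 (interval -0.13 to 2.09) and -0.46 for Lcmt1 (interval -1.0 to 0.09). The intervals are wide, and those of Qpct and Pcp4l1 reach beyond 1 log2 unit. At 15 mg/kg the difference was 0.77 for Slc6a6 (interval -0.49 to 2.03) and -0.59 for Lcmt1 (interval -1.13 to -0.05). Both agents chose the genes, so these differences are a description.

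For 4 genes more than 1 probe set was measured, so each change was read from different probes of the same gene. The 2 probe sets of Pcp4l1 gave -1.98 and -2.0 with phenobarbital at 45 mg/kg, -2.34 and -2.64 with BDE-47 at 50 mg/kg, and -1.36 and -1.59 with DE-71 at 50 mg/kg. Those of Slc6a6 differed little with BDE-47 at 50 mg/kg (-2.05 and -1.96) and more with DE-71 at 50 mg/kg (-2.19 and -1.43). The second Qsox1 probe set gave smaller changes, -1.16 beside -1.53 with phenobarbital at 45 mg/kg and -1.03 beside -1.72 with BDE-47 at 50 mg/kg. On that probe set the phenobarbital change was called and the BDE-47 change was not (limma, adjusted p = 0.0341 and 0.085). For Trim2 the 3 probe sets gave -0.67, -0.87 and -0.49 with BDE-47 at 50 mg/kg, of which the second was called lower, and -1.04, -0.54 and -0.56 with DE-71 at 50 mg/kg. With phenobarbital at 45 mg/kg they gave 0.00, -0.10 and 0.14, so no Trim2 probe set was called there. Counted by probe set, 7, 10 and 11 of 14 were called lower with phenobarbital at 45 mg/kg, BDE-47 at 50 mg/kg and DE-71 at 50 mg/kg.

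**Figure D4:**
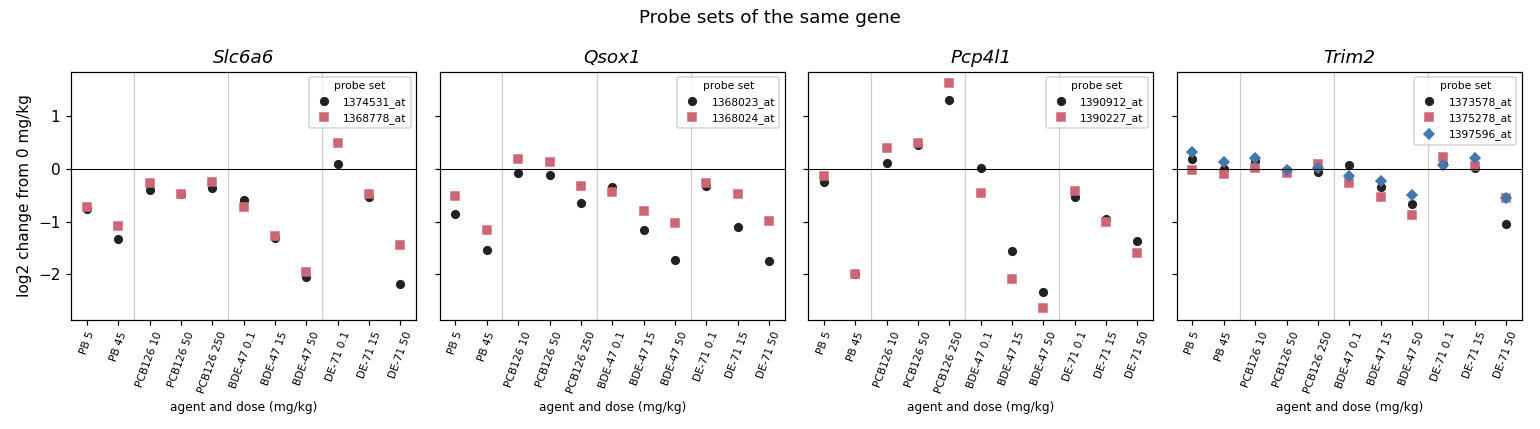
Log2 change from 0 mg/kg of the same agent (y axis) at each agent and dose (x axis) for the 4 genes with more than 1 probe set; each symbol is a probe set. Probe sets of a gene lie close together in most groups, and both Pcp4l1 probe sets stand above 1 with PCB126 at 250 mg/kg (1.32 and 1.63).

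Genes related by sequence or pathway were listed by what they are known to do. The lists were drawn up with earlier results of these data known, so they are not independent of the data. Of 24 close relatives of the 9 genes, such as other taurine and GABA carriers, Steap family members, Qpctl, Qsox2, Pcp4 and the progestin and adipoQ receptor genes, 21 were measured. None was called with phenobarbital at 45 mg/kg or with PCB126. Paqr7, a membrane progestin receptor gene, fell by 0.68 and Slc6a13, a GABA and taurine carrier gene, fell by 0.77 with BDE-47 at 50 mg/kg (adjusted p = 0.0263 and 0.0429). Steap4, another metalloreductase gene, fell by 0.50 with DE-71 at 50 mg/kg (adjusted p = 0.0431). These are 2 and 1 of 21, where 1.14% and 3.9% of all probe sets were called lower. The medians of the relatives in these 2 comparisons were -0.09 and 0.07, beside medians over all probe sets of -0.01 and 0.01.

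Beside Slc6a6, 18 genes of taurine and cysteine handling were measured. With phenobarbital at 45 mg/kg 2 fell, where 0.835% of all probe sets were called lower, and none rose. They were Cdo1, the cysteine dioxygenase that starts taurine synthesis (-0.48, SE 0.11, adjusted p = 0.00861), and Mpst, a mercaptopyruvate sulfurtransferase (-0.43, SE 0.09, adjusted p = 0.00122). With BDE-47 at 50 mg/kg Cbs, which feeds homocysteine into cysteine synthesis, fell by 0.58 (adjusted p = 0.00736) along with Slc6a13, 2 of 18 against 1.14% of all probe sets. With DE-71 at 50 mg/kg 3 fell and 2 rose, against 3.9% of all probe sets called lower and 3.73% higher, among them Fmo1, a flavin monooxygenase that also makes taurine from hypotaurine (-1.54, adjusted p = 8.96e-05), and Ggt1, a gamma-glutamyltransferase (0.81, adjusted p = 0.00444). The median changes of the list were -0.26, -0.22 and -0.21 in these 3 comparisons, beside -0.01, -0.01 and 0.01 over all probe sets. None was called with PCB126 at any dose. Around Lcmt1, 17 protein phosphatase 2A genes were measured. The scaffold subunit gene Ppp2r1b rose by 0.64 with phenobarbital at 45 mg/kg (adjusted p = 0.00357) and by 0.62 with BDE-47 at 50 mg/kg (adjusted p = 0.00812). The regulatory subunit gene Ppp2r5d fell by 0.37 with phenobarbital at 45 mg/kg (adjusted p = 0.0205). Ppp2r5e fell by 0.46 with DE-71 at 50 mg/kg (adjusted p = 0.0143), and no other gene of this list was called at these doses. Each call is 1 of 17 in its comparison. Of all probe sets 1.06% and 1.63% were called higher with phenobarbital and BDE-47, and 0.835% and 3.9% lower with phenobarbital and DE-71.

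Around Steap3, 18 of 22 genes of iron uptake and storage were measured, and only with DE-71 at 50 mg/kg were any called. Hmox1, the heme oxygenase gene, rose by 1.31 (adjusted p = 0.0252), and Steap4 fell. These are 1 of 18 higher and 1 of 18 lower, where 3.73% and 3.9% of all probe sets were called. Nothing is read from these counts. Around Qsox1, no gene of oxidative protein folding was called at the highest dose of any agent, and the lowest adjusted p with DE-71 at 50 mg/kg was that of Erp44, a thiol chaperone of the secretory pathway (0.36, adjusted p = 0.0813). For comparison, 14 of 15 CAR index genes rose with phenobarbital at 45 mg/kg (1.06% of all probe sets were called higher), 13 with BDE-47 at 50 mg/kg (1.63%), 14 with DE-71 at 50 mg/kg (3.73%) and none with PCB126. These index genes include ones named by earlier results of these data, so their counts are no independent evidence. Of 8 measured AhR index genes, 3 rose with PCB126 at 250 mg/kg (0.0336% of all probe sets were called higher). With DE-71 at 50 mg/kg 5 rose (3.73%) and with BDE-47 at 50 mg/kg 1 rose (1.63%). With phenobarbital at 45 mg/kg 1 fell, where 0.835% of all probe sets were called lower. Earlier results of these data also named AhR index genes, so these counts are no independent evidence either. In the DE-71 groups the values of the 9 genes stand beside a rise of AhR targets, whose part in them was not tested.

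Markers of liver cell types were read in the same samples. The 14 hepatocyte markers had sample means of 12.30 to 13.28 over all groups, and those of pancreas and gut 4.48 to 5.12. Hepatocyte markers called lower were 1 of 14 with phenobarbital at 45 mg/kg, 2 with BDE-47 at 50 mg/kg and 4 with DE-71 at 50 mg/kg, where 0.835%, 1.14% and 3.9% of all probe sets were called lower, the background also for the lists that follow. Their sample means were 12.61 to 13.07 in DE-71 controls and 12.30 to 12.87 at 50 mg/kg. Of 9 Kupffer cell and macrophage markers 6 fell with BDE-47 at 50 mg/kg, from sample means of 8.47 to 8.99 in the controls to 7.80 to 8.33, led by C1qc (-0.73, adjusted p = 0.000789), and none was called with phenobarbital or DE-71. With DE-71 at 50 mg/kg 2 of 10 stellate cell and fibroblast markers fell, with sample means of 7.33 to 7.68 in controls and 6.70 to 7.53 when treated, and so did 1 of 7 endothelial markers (8.58 to 8.83 and 8.08 to 8.62). Of 7 cholangiocyte markers 1 rose with each of these 3 agents and 1 fell with phenobarbital. Of 9 erythroid and of 6 neutrophil and myeloid precursor markers 1 each rose with DE-71. For these rises the background is the 1.06%, 1.63% and 3.73% of all probe sets called higher with phenobarbital, BDE-47 and DE-71. Of 10 lymphocyte and 9 pancreas and gut markers none was called at these doses. The part of these marker shifts in the changes of the 9 genes was not tested.

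For each gene the 2 genes with the most similar pattern were found by the root mean square difference of their changes over the 11 dose groups, where doses of an agent share their controls. Qsox1 and Qpct were each other's nearest gene, at 0.25 log2 units, and Igfbp2, an insulin-like growth factor binding protein gene, was next for both (0.26 from Qsox1 and 0.32 from Qpct). Slc6a6 lay nearest to Qsox1 (0.34) and Mmd2 (0.43), and Mmd2 nearest to Slc6a6 (0.43) and Qsox1 (0.43). So 4 of the 9 genes had a further gene of the 9 as their nearest, a likeness that the choice of the genes favours. Steap3 lay nearest to Prodh, a proline dehydrogenase gene (0.16), and the cyclin gene Ccnd1 (0.17). Lcmt1 lay nearest to Cimap1b (0.30) and Acsm3 (0.32), and Trim2, whose own changes are small, to G0s2 (0.15) and Serinc5 (0.18). Nearest to Pcp4l1 were Abcg5 (0.49) and Abcg8 (0.54), the paired sterol transporter genes, which lie farther from it than the nearest genes of the other members do. The root mean square of its own changes was 1.24, beside 1.0 for Mmd2 and 0.54 for C2h3orf80. These distances are not scaled to that size, so they do not rank how well the members are matched. C2h3orf80 lay nearest to Creb3l3 (0.32) and Vat1 (0.35).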

How the data were processed

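Rat liver RNA was measured on Affymetrix expression arrays. The authors deposited log2 values per probe set, made with RMA per the submitters' processing notes, with no version given. Values were used as deposited, and each dose was compared only with 0 mg/kg of its own agent, since the table may hold agents that were normalized separately. Of 31099 probe sets, 57 controls were left out, 20826 had 1 gene, 436 several and 9780 none, and symbols were updated through the gene ID. Arrays of 1 group that were nearly the same were replaced by their mean, a step decided after the values were seen. The fit estimated 15 group means over 72 samples with limma 3.58.1 in R 4.3.3 (57 residual and 4.28 prior degrees of freedom). P-values are two-sided and adjusted by Benjamini-Hochberg over 20826 probe sets within each comparison, with calls at an adjusted p below 0.05. A gene is represented by its probe set of highest mean. The model was tested on simulated data.

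The 9 genes, the gene lists and the tests were chosen with earlier results of these data known. The text names all probe sets of the 9 genes, up to 3 called genes of each list per comparison by p (or the one of lowest p), the 2 most similar genes of each member, and Ces2c and Cyp1a1 as index genes. The lists cover relatives of the 9 genes, taurine and cysteine handling, protein phosphatase 2A, iron uptake and storage, oxidative protein folding, CAR and AhR index genes, and markers of 9 cell types or tissues. Promoters come from RefSeq (GRCr8). Alternatives were all 74 arrays as separate samples, only the groups compared, renewed quantile normalization, a minimum mean of 5, 1 probe set a gene, a replicate block, leaving out near-identical arrays of different doses, and leaving out each array. Arrays have no counting depth, so their number limits the precision.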

Additional observations from a re-analysis of the deposited data

Results flagged for a closer look

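Each of the 9 genes was checked for samples that stand apart within their group, 135 groups of 4 or 5 samples in all, and 13 values did so by Dixon's criterion. By chance about 5% of such groups hold a value of this kind. All values are log2 expression on the main probe set of the gene.

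In the DE-71 group at 50 mg/kg replicate 4 stood above the others for Qpct (6.69), Qsox1 (7.57) and C2h3orf80 (3.45). That array is nearly the same as replicate 5 at 15 mg/kg. Likewise replicate 3 of BDE-47 at 50 mg/kg, nearly the same as replicate 3 at 15 mg/kg, stood above its group for Qpct (5.55). Values without these pairs stand beside part of the changes in the report. Without its pair Qpct changed by -1.29 at 15 mg/kg and -2.11 at 50 mg/kg of BDE-47. C2h3orf80 changed by 0.08 at 15 mg/kg and 0.07 at 50 mg/kg of DE-71 without its pair.

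Among the samples with a lowering agent, Trim2 was low in replicate 5 of BDE-47 at 50 mg/kg (6.38) and high in replicate 3 of DE-71 at 15 mg/kg (8.04). Pcp4l1 was low in replicate 3 of phenobarbital at 45 mg/kg (5.34). At 0.1 mg/kg Qsox1 was low in replicate 2 of DE-71 (6.36), and C2h3orf80 was high in replicate 3 of BDE-47 (4.43). Among the controls Mmd2 was low in replicate 5 of phenobarbital (6.18) and in replicate 1 of DE-71 (6.04). Trim2 was low in replicate 3 of the phenobarbital controls (7.47), and Qpct in replicate 2 of the PCB126 controls (6.26).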

How the results depend on the processing

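Of 3246 recomputed gene changes, 3170 kept their side of the threshold, 50 lost the call, 26 gained it and 0 called ones reversed. Among changes called in neither fit 131 took the other sign. Fitted on the arrays of the groups compared alone, the genes called lower were 4 of 9 with BDE-47 at 15 mg/kg, 1 with DE-71 at 15 mg/kg, 2 with DE-71 at 50 mg/kg and 0 with phenobarbital at 5 mg/kg. In that setting 0 were called for the DE-71 steps from 0.1 to 15 mg/kg and from 15 to 50 mg/kg. Without the near-identical arrays of different doses 1 was called with BDE-47 at 15 mg/kg and 1 for its step from 0.1 mg/kg. With all 74 arrays as separate samples 2 were called for the DE-71 step from 0.1 to 15 mg/kg. With a minimum mean of 5, which removes C2h3orf80, 0 were called with phenobarbital at 5 mg/kg. Leaving out 1 array at a time gave 0 to 3 genes with BDE-47 at 15 mg/kg, 1 to 2 for its step from 0.1 mg/kg, 1 to 3 with DE-71 at 15 mg/kg and 1 to 2 for its step from 0.1 mg/kg. It gave 0 to 3 for the DE-71 step from 15 to 50 mg/kg, and 1 to 2 for the phenobarbital step from 5 to 45 mg/kg. The counts at the highest doses ran from 4 to 6 with phenobarbital, 6 to 7 with BDE-47 and 7 to 8 with DE-71. The cause of these shifts was not tested beyond the smaller number of samples or genes. Without replicate 2 of DE-71 at 50 mg/kg 403 probe sets were called there, against 1589 with it. On the main probe sets no PCB126 value passed the threshold in any of 760 values over all settings. Their lowest adjusted p was 0.232 (limma). The second Pcp4l1 probe set is not among these values, and its adjusted p at 250 mg/kg was 0.0861 in the main fit.

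With the replicate number as a block the counts of genes called lower were 1, 5, 2, 7, 2 and 8 of 9 for phenobarbital at 5 and 45 mg/kg, BDE-47 at 15 and 50 mg/kg and DE-71 at 15 and 50 mg/kg, and 0 with PCB126, as without the block. Samples that share a number deviated together with correlations from -0.60 to 0.66, so the numbers were not taken as pairs.

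Groups of 4 or 5 arrays limit the precision, and the dim C2h3orf80 probe set has no measured floor.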
